A study of Mus musculus with 2 samples.

Results

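The genes described are 10 regulators that hold the cell cycle in check: the cyclin-dependent kinase (CDK) inhibitor genes Cdkn1a, Cdkn1b, Cdkn2a, Cdkn2b, Cdkn2c and Cdkn2d, the p53 gene Trp53 and its ligase gene Mdm2, and the retinoblastoma family genes Rb1 and Rbl1. They were taken by symbol from the deposited table of all genes, and each of the 10 matched 1 row among 23647 genes. RNA came from PDGFRa-positive cells sorted by antibody from the stromal vascular fraction of mouse inguinal white adipose tissue, that is, the non-adipocyte cells of a subcutaneous fat pad. One library was made from Sox9 floxed mice, labelled wild type, and 1 from Sox9 PreASKO mice, labelled knockout. All mice are labelled male with an age of 3 weeks, and doxycycline was administered on postnatal day 1 in both groups. The RNA was pooled from 3 mice, per the series design. The sources used here do not give the promoter that drives the deletion or the cells it reaches. The series asks which genes differ between the genotypes by more than 2-fold. With 1 pooled library on each side there was no spread between animals and no test, so every interval below is a 95% counting interval of these libraries.

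The INK4 proteins (from Cdkn2a, Cdkn2b, Cdkn2c and Cdkn2d) bind CDK4 and CDK6 and keep D-type cyclins from activating them, whereas the CIP/KIP proteins (from Cdkn1a and Cdkn1b) bind cyclin-CDK2 complexes. Unphosphorylated pRB and its relatives p107 and p130 hold E2F factors and thereby keep replication genes off until CDKs phosphorylate them. p53 is a stress-responsive transcription factor that activates Cdkn1a and Mdm2, and the Mdm2 protein in turn marks p53 for degradation. In adipose precursors these proteins are known for their roles in the cell cycle exit and clonal expansion that accompany adipocyte differentiation.

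The sequences of the promoters of Cdkn1a and Rbl1 are shown because they carry, within the RefSeq window of 250 bases before to 50 after a gene start (GRCm38.p6), motifs that link these members to p53 and to E2F. The upstream start of Cdkn1a (chr17:29090729-29090978, plus strand, the 250 bases before the start) holds 1 match to the p53 response element consensus, with 1 mismatch, beginning 51 bases before the start. Capitals mark the match.
Cdkn1a: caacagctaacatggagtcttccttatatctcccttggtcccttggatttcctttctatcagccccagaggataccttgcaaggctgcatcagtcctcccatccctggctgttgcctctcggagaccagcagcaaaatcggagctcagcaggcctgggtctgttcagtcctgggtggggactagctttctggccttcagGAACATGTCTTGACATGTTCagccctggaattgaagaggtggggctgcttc

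The consensus was searched as a pair of adjacent half-sites with at most 1 mismatch, and the pattern reads the same on both strands. A match occurred in 22 of 32851 windows, or 0.067%. Among the 9 members with a window, Cdkn1a was the only one with a match, at its upstream start and not at its downstream one. Among 22 p53 target genes with a window only Ccng1 had a match. Bases outside these windows were not searched, so a gene without a match may still hold a p53 response element. For E2F, the letters TTTCCCGC, TTTCGCGC, TTTGCCGC and TTTGGCGC were searched on both strands, and 744 windows (2.26%) held at least 1 of them. These motifs can overlap one another on opposite strands. Rbl1 held TTTCGCGC beginning 18 bases before its start, and the window at the upstream start of Cdkn2a, that of the ARF transcript, held a match too. Of 18 replication genes with a window, 10 held a match. Rbl1 (chr2:157204535-157204568, minus strand) is shown with the 3 of those genes that had the lowest ratios and a match before the start: Cdc6 (chr11:98907997-98908036, plus), Uhrf1 (chr17:56304112-56304151, plus) and Pola1 (chrX:93632270-93632309, minus). Capitals mark the E2F letters, which in Cdc6 and Pola1 lie on the other strand.
Rbl1: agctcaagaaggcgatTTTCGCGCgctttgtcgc
Cdc6: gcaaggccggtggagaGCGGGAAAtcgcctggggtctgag
Uhrf1: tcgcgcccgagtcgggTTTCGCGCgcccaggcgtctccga
Pola1: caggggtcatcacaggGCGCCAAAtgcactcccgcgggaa

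The libraries held 61761645 (floxed) and 37597048 (PreASKO) counts, so 1 count was worth 0.0162 and 0.0266 CPM (counts scaled to a library total of 1000000). Sox9 itself had 28.6 CPM in floxed against 17.0 CPM in PreASKO (PreASKO to floxed ratio 0.595), and gene counts do not show whether the remaining transcript was intact. The library labelled PreASKO held 745 CPM of Xist, the noncoding RNA of the female inactive X, against 3.24 CPM, although both pools are labelled male. Where a pair of values is given, floxed comes first. Y-linked genes were present in both libraries, with Ddx3y at 40.6 and 39.5 CPM, Kdm5d at 20.2 and 10.9 CPM, Eif2s3y at 17.6 and 11.0 CPM and Uty at 12.5 and 9.12 CPM. Of 14 macrophage markers 11 were at least 1.5-fold higher in PreASKO, as 7.89% of all genes tested were. Among them were Lyz2 (387 and 843 CPM), Cd163 (42.7 and 96.4 CPM) and Ms4a7 (13.7 and 38.4 CPM). Summed over the list, macrophage markers stood at 1528 and 2884 CPM, endothelial markers at 23.3 and 43.1 CPM and mature adipocyte markers at 177 and 114 CPM, and no marker was at 0 in both libraries. The sorting marker Pdgfra stood at 716 and 603 CPM, and the list of PDGFRa-positive stromal genes summed to 9939 and 9605 CPM. Mural markers summed to 326 and 331 CPM, and immediate early genes, which respond to cell handling, to 19455 and 26618 CPM. Of 16 measured immediate early genes 9 were higher and 7 lower, where 45.5% of all genes tested were higher. Zfp36 stood at 3173 and 7478 CPM and Egr3 at 58.9 and 26.3 CPM. Mature adipocyte markers had 1 of 8 higher and 7 lower, and PDGFRa-positive stromal genes 4 of 9 higher and 5 lower. In bulk RNA, fewer cells of a type and less RNA per cell cannot be told apart. The part of sex and of other cells in the ratios below was not tested.

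Cdkn1a, Cdkn2c, Cdkn2d and Mdm2 were slightly higher in the PreASKO library, while Rb1, Rbl1, Trp53 and Cdkn1b were lower. These directions come from a raw and a repeat-distributed count per gene, added together. Taken apart, the raw and repeat-distributed counts gave opposite directions for Cdkn1a, Cdkn1b, Cdkn2c, Mdm2 and Rbl1. Differences are log2(CPM + 1) in PreASKO minus floxed, a scale that understates differences of low genes, and 8 of the 10 members passed the minimum mean of 1 CPM that 13684 genes passed. Of these 8 members, 0 reached a 2-fold higher value, as 2.11% of all genes tested did, and 0 a 2-fold lower one, as 1.52% did. At 1.5-fold, 0 were higher and 1, Rb1, was lower, where 7.89% and 8.18% of all genes were. Higher values were found in 4 of 8 members, against 45.5% of all genes. The median difference of the 8 was 0.01, against -0.04 over all genes. The counting interval of the ratio lay above 1 for 4 members and below 1 for 4, but it also did for 33.4% and 41.4% of all genes, so an interval that misses 1 is common at this depth.

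**Figure D1:**
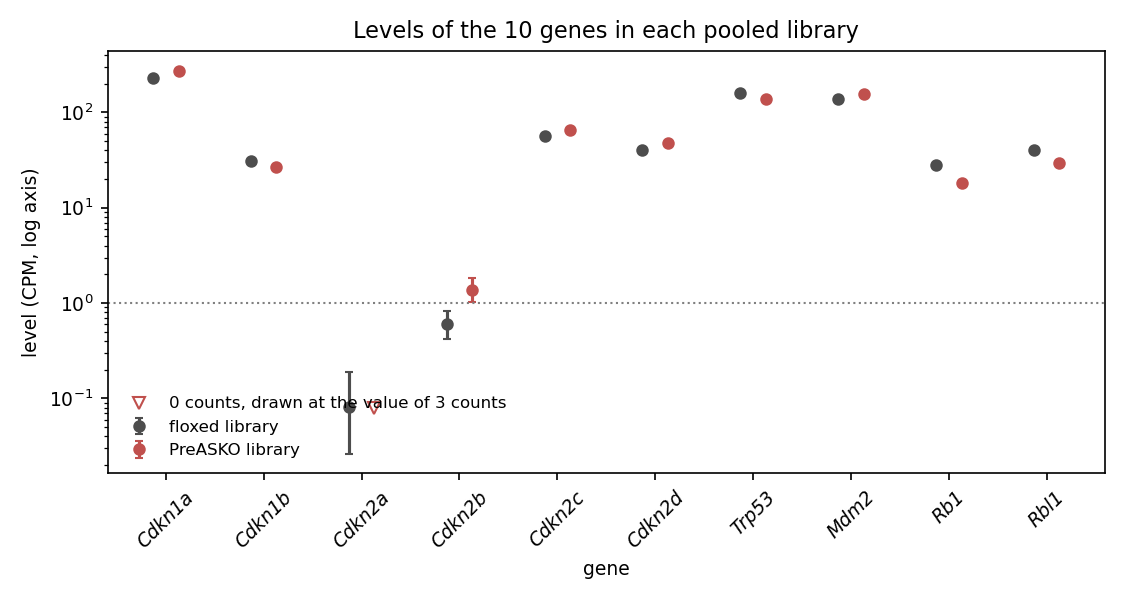
Level of each gene in CPM (log axis) in the floxed and PreASKO library, with 95% Poisson counting intervals, mostly narrower than the points. Cdkn2a and Cdkn2b lie far below the other 8 genes, around or under the dotted line at 1 CPM, and Cdkn2a has 0 counts in PreASKO.

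Cdkn1a, which encodes p21, was the most abundant member. With 14131 counts in the floxed library it reached 229 CPM (225 to 233), against 273 CPM (268 to 278) from 10269 counts in PreASKO. The ratio was 1.19 (1.16 to 1.22), a difference of 0.25 on the log2 scale, and 77.1% of the genes tested had a lower one. The gene lies on chromosome 17, from 29090979 to 29100722 (Entrez ID 12575, mm10), and 273 of its 3553 annotated exon bases overlap an antisense transcript, with strand use in counting not stated.

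Cdkn1b, which encodes p27, went the other way. The gene (Entrez ID 12576, chromosome 6, 134920401 to 134925525) had 1901 counts or 30.8 CPM in the floxed library, and 1016 counts or 27.0 CPM in PreASKO. The PreASKO to floxed ratio was 0.878 (0.813 to 0.948). The deposited table divides each gene's reads into a raw and a repeat-distributed count, which were added here, and for Cdkn1b these disagreed. Its raw count gave 1017 and 732, a ratio of 1.06 (0.964 to 1.17) after scaling to the raw totals, and its repeat-distributed count gave 884 and 284, a ratio of 0.545 (0.475 to 0.624). The direction of Cdkn1b therefore rests on how these counts are combined. For Cdkn1a the raw count, 3.37% of its counts in floxed, gave 0.929 (0.802 to 1.08) and the repeat-distributed count 1.24 (1.21 to 1.27). Of 8 genes of p27 turnover, 4 were higher and 4 lower (median 0.03), where 45.5% of all genes were higher. Skp2, which recruits p27 to its ubiquitin ligase, stood at 45.7 and 36.3 CPM. Its cofactor Cks1b stood at 81.2 and 100.6 CPM, and Cops5 at 87.8 and 69.2 CPM.

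Cdkn1c, the imprinted gene of p57 and the remaining CIP/KIP gene, stood at 75.4 and 70.5 CPM (ratio 0.935, 0.892 to 0.981). Per kilobase of the longest annotated coding transcript, Cdkn1a gave 70.3% of the CIP/KIP level in floxed and 75.3% in PreASKO, Cdkn1c 25.4% and 21.3%, and Cdkn1b 4.32% and 3.40%. Transcription factors that act on Cdkn1a or Cdkn1b had a median difference of 0.03 over 14 genes. Of them, 8 were higher, where 45.5% of all genes were. Cebpd stood at 180 and 554 CPM and Cebpb at 18.7 and 52.0 CPM. Both are also made by macrophages, whose markers were higher in the same library, and the part of macrophages in these values was not tested. Myc, which can repress Cdkn1a, stood at 315 and 503.7 CPM.

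Among the INK4 genes, Cdkn2c and Cdkn2d carried nearly all of the RNA. Cdkn2c (p18; Entrez ID 12580, chromosome 4, 109660876 to 109666756) had 3470 counts or 56.2 CPM in the floxed library, against 2480 counts or 66.0 CPM, with a ratio of 1.17 (1.11 to 1.24). Cdkn2d (p19INK4d; Entrez ID 12581, chromosome 9, 21288459 to 21291421) had 2478 counts or 40.1 CPM, against 1790 counts or 47.6 CPM, with a ratio of 1.19 (1.12 to 1.26). Both were thus higher in PreASKO by about the same factor. For Cdkn2c the raw count alone pointed the other way, with 407 and 185 counts, a ratio of 0.670 (0.560 to 0.800), but it held only 11.7% of the gene's counts in floxed. For Cdkn2d both kinds of count were higher in PreASKO.

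Cdkn2b (p15), a gene known to respond to TGF-beta (Entrez ID 12579), was barely detected. It had 37 counts in floxed (0.599 CPM, 0.422 to 0.826) and 52 in PreASKO (1.38 CPM, 1.03 to 1.81), and its mean of 0.991 CPM put it just under the minimum. The ratio of 2.31 (1.49 to 3.62) was the highest among the members, yet on the log2(CPM + 1) scale the difference was 0.58. Its raw count, 27 and 47, gave 2.57 (1.57 to 4.29), and its repeat-distributed count, 10 and 5, gave 0.849 (0.228 to 2.72). In the authors' deposited table its fold was 2.31, which would pass a 2-fold cutoff.

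Cdkn2a (Entrez ID 12578) encodes both p16INK4a and p19ARF from separate starts, and its transcripts share 575 of 852 and 895 bases, so a gene count does not separate them. It had 5 counts in floxed (0.081 CPM, 0.026 to 0.189) and 0 in PreASKO (0 CPM, with an upper bound of 0.098). The interval of the ratio ran from 0 to 1.79, so a difference was not detectable at this depth. The authors' deposited table lists a fold of 0.0148 for this gene, which rests on those 5 counts.

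Both Cdkn2a and Cdkn2b lie close together on chromosome 4, at 89274473 to 89294619 and 89306289 to 89311032. Of 17 Polycomb and related repressors of this locus, 10 were higher, where 45.5% of all genes were. Their median was 0.03. Cbx6 stood at 148 and 85.9 CPM, Cbx2 at 10.4 and 6.06 CPM and Phc2 at 28.3 and 40.0 CPM. Of 4 activators of the locus, 2 were higher (median -0.10), with Kdm6b, an H3K27 demethylase gene, at 123 and 135 CPM and Ets2 at 91.4 and 72.4 CPM.

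**Figure D2:**
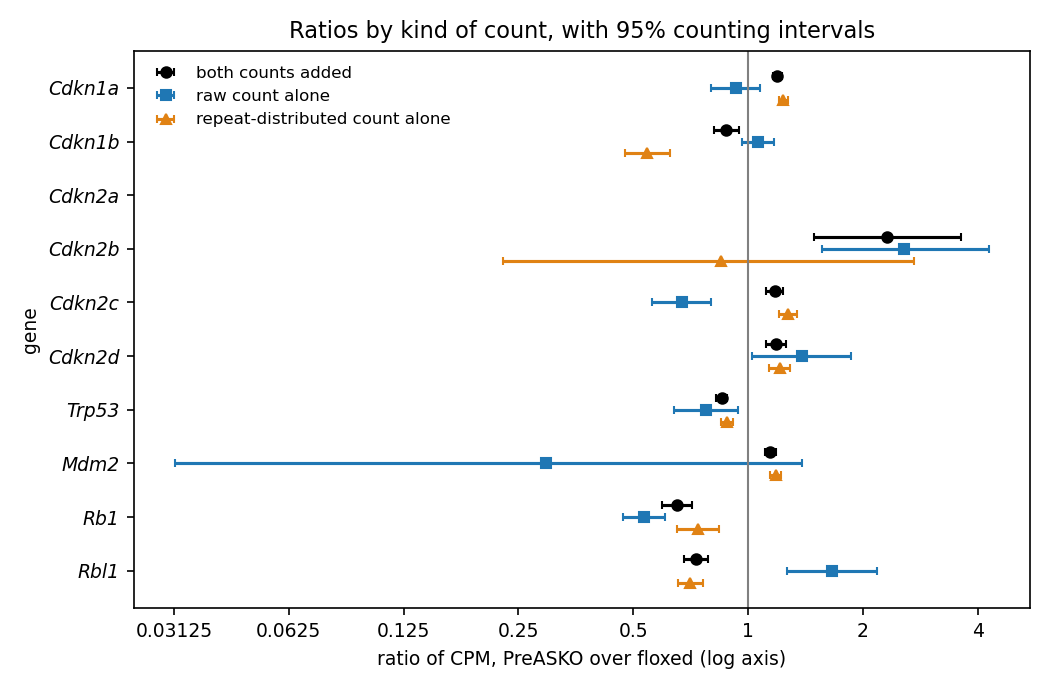
Ratio of CPM in PreASKO over floxed (log axis) for each gene from both counts added, from the raw count alone and from the repeat-distributed count alone, with 95% counting intervals. Cdkn2a has no point because its PreASKO count is 0. Rb1, Trp53 and Cdkn2d keep their side of 1 with either kind of count, while the other 6 genes plotted have raw and repeat-distributed values on opposite sides, with intervals that miss 1 on both sides for Cdkn2c and Rbl1.

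The kinase genes whose products INK4 proteins bind were lower in PreASKO, unlike Cdkn2c and Cdkn2d. Cdk4 had 230 and 142 CPM with a ratio of 0.619 (0.600 to 0.639), and Cdk6 had 17.0 and 12.3 CPM. Summed per kilobase, INK4 RNA equalled 0.454 of the Cdk4 and Cdk6 level in floxed and 0.870 in PreASKO. This quotient, which does not depend on library scaling and was chosen after the values were seen, was thus 1.92 times as high in the PreASKO library, and 1.47 times with the raw count alone.

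Of 13 G1 cyclin and kinase genes, 3 were higher and 10 lower, where 45.5% of all genes were higher. Their median was -0.38. Besides Cdk4, Ccnd3 (cyclin D3) stood at 146 and 96.5 CPM, and Cdc25a, the phosphatase gene that activates CDK2, at 17.0 and 11.3 CPM. Cdk2 stood at 28.8 and 19.4 CPM. Per kilobase, the CIP/KIP genes summed to 13.1 times the Cdk2 level in floxed and 21.6 times in PreASKO. This quotient was not recomputed by kind of count, and the raw count of Cdkn1a, its largest part, gave a ratio of 0.929.

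Trp53 was lower in the PreASKO library and its target Mdm2 higher, both by small amounts. Trp53 (Entrez ID 22059, chromosome 11, 69580348 to 69591873) had 9866 counts or 159.7 CPM, against 5131 counts or 136 CPM, with a ratio of 0.854 (0.826 to 0.884). Mdm2 (Entrez ID 17246, chromosome 10, 117688875 to 117710758) had 8500 counts or 138 CPM, against 5924 counts or 158 CPM, with a ratio of 1.14 (1.11 to 1.18). Of the Mdm2 counts, only 10 and 2 were raw, too few to give a direction. Per kilobase, Mdm2 was 0.511 of the Trp53 level in floxed and 0.685 in PreASKO, and Cdkn1a was 1.29 and 1.80 times the Trp53 level. These quotients were not recomputed by kind of count.

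The wider set of p53 targets went both ways. Of 27 measured targets, 11 were higher, where 45.5% of all genes were. Their median of -0.06 lay beside the -0.04 of all genes. Gadd45a, a growth arrest and DNA damage gene, stood at 29.9 and 66.0 CPM (ratio 2.21, 2.08 to 2.35) and was the only target past 2-fold on the log2(CPM + 1) scale. Sesn2, which restrains mTORC1, stood at 11.4 and 5.64 CPM, a plain ratio of 0.497 that is past 2-fold without the pseudocount, and the nucleotide excision repair gene Xpc at 7.82 and 3.96 CPM. Ccng1, whose promoter held the other p53 match, stood at 91.1 and 87.3 CPM, and the pro-apoptotic gene Bax at 51.6 and 62.6 CPM.

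Of 18 regulators of p53, 6 were higher and 12 lower, where 45.5% of all genes were higher. Their median was -0.21. Atm, the kinase that signals DNA double-strand breaks to p53, stood at 22.8 and 10.6 CPM (ratio 0.467, 0.417 to 0.522) and was the only one past 2-fold. Hdac1, a deacetylase acting on p53, stood at 123 and 65.2 CPM. Npm1, which binds ARF in the nucleolus, stood at 230 and 359 CPM, a value made uncertain by its processed pseudogenes. Mdm4, the relative of Mdm2 that blocks p53 without degrading it, stood at 78.0 and 79.0 CPM, and Trp63 and Trp73 were under 1 CPM.

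Rb1 had the largest difference of the 8 measured members. From 1736 counts it reached 28.1 CPM in the floxed library, against 18.3 CPM from 689 counts. The ratio was 0.652 (0.596 to 0.713), and 8.002% of the genes tested had a lower log2 difference than its -0.59. Both kinds of count were lower, with a ratio of 0.534 for the raw and 0.742 for the repeat-distributed count. Rb1 (Entrez ID 19645, chromosome 14, 73192858 to 73325951) overlaps genes on the other strand, and of its 6015 exon bases it shares 408 with Lpar6 and 488 with Rcbtb2. Both neighbours were lower as well: Lpar6 stood at 16.2 and 12.1 CPM and Rcbtb2 at 95.6 and 66.3 CPM. Without stated strand use, reads in the shared bases cannot be assigned.

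Rbl1, which encodes p107 and carries the E2F letters shown above, had 2470 counts or 39.99 CPM, against 1101 counts or 29.3 CPM, with a ratio of 0.732 (0.681 to 0.786). The gene has Entrez ID 19650 and lies on chromosome 2, from 157145893 to 157204534. Its raw count, 104 and 117, gave a ratio of 1.66 (1.26 to 2.18), but held 4.21% of the counts in floxed and 10.6% in PreASKO. Rbl2, which encodes p130, the form typical of resting cells, stood at 62.2 and 63.0 CPM (ratio 1.01, 0.962 to 1.07). Per kilobase, Rbl2 made up 47.0% of the RB family in floxed and 56.2% in PreASKO, Rbl1 30.6% and 26.5%, and Rb1 22.4% and 17.3%. The order of the levels per kilobase, Rbl2 above Rbl1 above Rb1, was the same in both libraries.

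**Figure D3:**
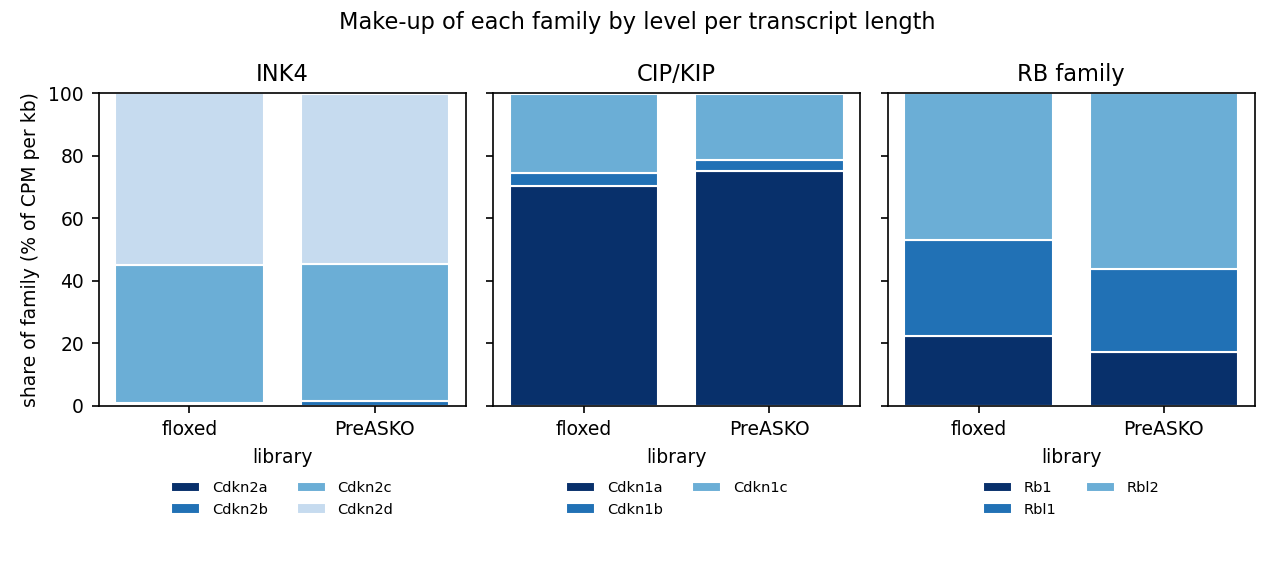
Share of each gene in the summed level of its family (CPM per kilobase of coding transcript, stacked to 100%) in the floxed and PreASKO library. Cdkn2d and Cdkn2c fill the INK4 bars, Cdkn1a fills most of the CIP/KIP bars, and Rbl2 takes 47.0% of the RB family in floxed and 56.2% in PreASKO.

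Downstream of the RB family, all listed replication targets of E2F had lower values in PreASKO, while the E2F factors went both ways. Of 10 E2F and DP genes, 3 were higher and 7 lower, where 45.5% of all genes were higher. Their median was -0.22. The activator E2f2 stood at 14.3 and 7.87 CPM and E2f8 at 21.1 and 14.7 CPM, whereas E2f4, the partner of p107 and p130, stood at 27.0 and 38.0 CPM. All 23 replication genes were lower, by 0.14 to 1.35 on the log2 scale, with a median of -0.41. Cdc6, the replication licensing gene whose promoter is shown, stood at 8.66 and 2.79 CPM, Rrm2 at 48.7 and 25.6 CPM and Gins1 at 8.52 and 4.10 CPM.

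Of 7 genes of the MuvB complex and its partners, 1 was higher and 6 lower (median -0.38), where 45.5% of all genes were higher. Through the DREAM complex, which holds MuvB but not the Mybl2 protein, p130 and p107 repress cell cycle genes. Mybl2 stood at 9.23 and 4.28 CPM, Lin52 at 8.14 and 4.47 CPM and Lin54 at 15.6 and 11.5 CPM. The share of cycling cells was not measured.

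**Figure D4:**
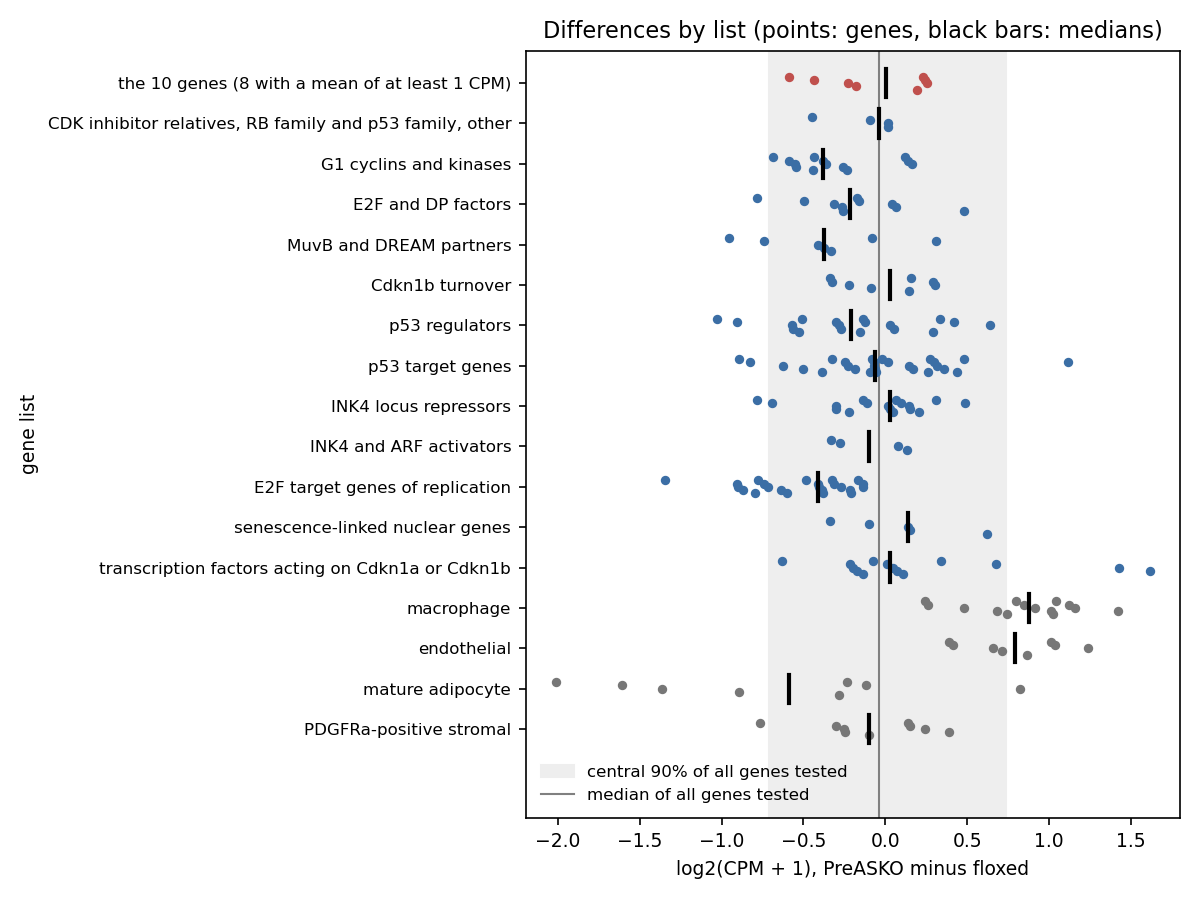
Difference in log2(CPM + 1), PreASKO minus floxed, for each gene (points) and the median (black bars) of the 8 members above 1 CPM, of 12 related lists and of 4 cell type lists, with the central 90% and the median of all genes tested. All 23 replication genes lie left of 0 and all 14 macrophage markers right of it, while the members lie on both sides.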

How the data were processed

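Polyadenylated RNA of sorted cells was sequenced, and the submitters' processing notes name mm10. The sources used here do not give the aligner, counting program or strand use. Per the file headers, the deposited table holds a raw count and a repeat-distributed count per gene and library, the latter treated as an estimated count because it need not be whole. How the authors divided reads between them is not stated. The authors' deposited fold is a ratio of PreASKO to floxed. Its median over the ratio of CPM used here was 1.02, among 11983 genes with at least 100 counts in each library.

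Both counts were added (23669 rows, summed by Entrez ID to 23647 genes) and scaled to the library total as CPM. Differences used a pseudocount of 1 CPM and a minimum mean of 1 CPM. Intervals are exact at 95%, Poisson for levels and binomial (Clopper-Pearson) for ratios, with estimated counts rounded. They cover counting error only. Lengths and overlaps came from GENCODE, coordinates and promoters from RefSeq (GRCm38.p6), where 9 of 10 members had a promoter window. All members are named, and from 12 related lists genes were taken from the 3 per list with the largest absolute difference above a mean of 5 CPM, as for the macrophage markers among 6 cell type lists. Other genes were named after their values were seen. The members and lists were chosen with earlier results of these data known. The 2-fold calls and intervals were tried on simulated counts drawn with counting error only, the error these intervals assume. That test could not cover spread between animals, errors of scaling or the division into 2 kinds of count. Python 3.11.15, scipy 1.17.1 and pandas 2.3.3 were used.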

Additional observations from a re-analysis of the deposited data

How the results depend on the processing

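The members' differences, the list medians and the counts past 2-fold were recomputed under 8 alternatives where they could be. Of the quotients between genes, only that of INK4 to Cdk4 and Cdk6 was recomputed, by kind of count and without length. Family shares and marker sums were not recomputed. Rb1, Trp53 and Cdkn2d kept their direction in all 8, with log2 differences from -0.89 to -0.40, -0.35 to -0.18 and 0.22 to 0.42. Changes of the pseudocount or of the minimum could not reverse a gene's direction, so only the other alternatives bear on it. With the raw count alone, Cdkn1a turned to -0.10, Cdkn1b to 0.085, Cdkn2c to -0.55, Mdm2 (10 and 2 raw counts) to -0.51 and Rbl1 to 0.66, and 1 member, Cdkn2b, was at least 2-fold higher. The cause was not tested. With the repeat-distributed count alone, Cdkn2b (10 and 5 such counts) turned to -0.038 and the median of immediate early genes from 0.15 to -0.018. Scaling by the median ratio shifted values by 0.035 on the log2 scale and moved the median of the members from 0.01 to 0.23, since Cdkn2b then passed the minimum. A 1.5-fold cutoff gave 1 lower member. The authors' fold put Cdkn2a at -6.12 on the log2 scale, from 5 and 0 counts. The replication list kept its direction in all 8 alternatives, with medians from -0.49 to -0.27. With every gene of that list lower by more than the scaling shift of 0.035, the pseudocount, minimum and scaling settings could not reverse it either. No paired analysis was possible because each genotype has 1 library, and for the same reason no library could be left out. Depth limits Cdkn2a (5 and 0 counts) and Cdkn2b (37 and 52 counts).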

Other observations

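Genes linked to chromatin in senescent cells were mixed. Of 5 measured, 3 were higher in PreASKO (median 0.14), where 45.5% of all genes were. Hmgb2, a high-mobility group protein gene, stood at 31.3 and 48.6 CPM and Hmgb1 at 42.8 and 47.7 CPM. Both have processed pseudogenes that make them uncertain. Lmnb1 (lamin B1) stood at 40.4 and 31.7 CPM.

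The raw count held very different shares of the members. In the floxed library it held 73.0% of the counts of Cdkn2b, 53.5% of Cdkn1b and 53.3% of Rb1, but 0.118% of Mdm2 and 3.19% of Trp53. Over all genes with at least 100 counts in each library, the median raw share was 48.5% for 2901 genes with 1 RefSeq transcript and 0.636% for 8860 genes with more than 1. Cdkn1b and Cdkn2b have 1 such transcript, Rb1 has 2 and Trp53 has 6. For Cdkn1b the raw share was 72.0% in PreASKO against 53.5% in floxed.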
